A study of Mus musculus with 43 samples.

Results

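PD798 cells that passed through a magnetic and acoustic pre-enrichment step before flow sorting (Pre-enriched, 3 libraries) were compared with PD798 cells that were sorted without it (FACS-only, 3 libraries). These 6 libraries, chosen by their labels alone, are part of 43 in the series, and 12159 of the 13845 genes in their expression table were tested. PD798 is a cell line grown out of a pancreatic tumor of a KPCY mouse, in which Pdx1-Cre drives recombination in the pancreas and the tumor cells carry, among other alleles, p53 L/+ and the Rosa YFP/YFP reporter. All libraries come from this 1 line. The cells of both groups had been incubated with magnetic particles and treated with red blood cell lysis buffer, and both were sorted on the same model of sorter. Only the Pre-enriched cells also passed the magnetic separator and the acoustic focusing and washing chip, connected in-line with the sorter. The labels mention mouse blood for these samples, whereas the description of the experiment in the study does not, so contact with blood is not settled. The expression table has 6 further libraries, 3 of cells kept in staining buffer at room temperature for a matched period (Mock) and 3 of cells taken before sorting (Pre-FACS), and their values are set beside those of the main comparison. The study describes the FACS-only cells as the same sample as the Pre-enriched cells, but no source says that the replicate numbers mark its splits. The duration of the sorts is not given in the sources used here. No source says whether libraries of the same group came from separate cultures, so the p-values measure the spread between these libraries, which may be technical.

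Passage through tubing, magnets and buffers can act on cells before their RNA is taken. Immediate-early genes such as Fos, Jun and Egr1 are transcribed within minutes of a stimulus without new protein synthesis. NF-kB factors are held inactive by inhibitor proteins, and once released they switch on inflammatory genes together with the genes of their own inhibitors, which closes a negative feedback loop. Both groups of genes are known to respond to mechanical handling, dissociation and changes of medium in many cell types, and they are read here beside genes of epithelial identity, metabolism and cell division. Because the RNA came from bulk cells, fewer expressing cells and less RNA per cell cannot be told apart.

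None of the 12159 genes passed the test between Pre-enriched and FACS-only cells. Among genes of the NF-kB pathway, Tnfaip3, Nfkbia, Nfkbiz, Cxcl1 and Cxcl2 had lower expression in all 3 Pre-enriched libraries than in any FACS-only library. Tnfaip3 and Nfkbia encode inhibitors, Nfkbiz the nuclear protein IkB-zeta, and Cxcl1 and Cxcl2 chemokines. The chemokine gene Cxcl5, the keratins, E-cadherin, Epcam and Atf4 lay close together in both groups. Of the NF-kB list, 20 of 27 tested members were lower and 7 higher. Of the immediate-early genes, 31 of 34 were lower, against 54.4% of all genes tested. After median centring 14 of the 27 and 28 of the 34 were lower, against 5212 of 12159 genes. With limma and Benjamini-Hochberg adjustment, 0 genes (0%) had an adjusted p under 0.05, and the lowest adjusted p was 0.069, for Tnfaip3. Between 0 and 7 genes passed under the alternatives tried, the most with the replicate number as a block. These were Tnfaip3, Nfkbia, Plk2, Jun, Plk3, Cxcl1 and Csrnp1, all lower. For single genes below, SE, interval and adjusted p come from the fit without this block unless an alternative is named. At an unadjusted p under 0.05 there were 821 genes (6.75%), 270 (2.22%) with higher and 551 (4.53%) with lower expression after pre-enrichment. This split depended on the scaling, with 378 higher and 428 lower after quantile normalization, 540 and 341 after median centring, and 392 and 357 among 11726 genes after a trend with transcript length and GC content was removed. The Pre-enriched and FACS-only values did not overlap for 1498 genes (12.3%), with all 3 Pre-enriched libraries below for 901 (7.41%) and above for 597 (4.91%).

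Promoters of some of these genes hold the letters of the DNA element that NF-kB binds, and they are printed to show where it lies. Windows from 250 bases before to 50 bases after each gene start (RefSeq, GRCm38.p6) were searched on both strands for a kappaB motif, GGG and TTTCC with any 2 bases between them. Of the 27 tested members of the list of NF-kB subunits, inhibitors and targets, 21 had a window and 7 of these had a match: Ccl20, Csf1, Cxcl1, Cxcl2, Nfkb2, Nfkbia and Tnfaip3. Nfkbiz and Cxcl5 had no window, and Cxcl10 and Nfkbie had one without a match. Counted by windows this was 37.5% of 24, against 1.63% of all 32851 promoter windows and 1.8% of the 11827 windows of tested genes. The list was made up in part of known NF-kB targets, so this share reflects its making and is not a result of pre-enrichment. The 100 bases before the gene start follow for the 4 of these genes that are described in detail, with the match in capitals. The fifth stretch is that of Plk2, the polo-like kinase gene among the 12 lower genes of lowest p, with the cyclic AMP response element TGACGTCA in capitals, an element found in 1.79% of all windows and 3.15% of those of tested genes. The 2 motifs share no stretch in which one would count as the other. A match is a description of letters and not of a bound site.
Nfkbia: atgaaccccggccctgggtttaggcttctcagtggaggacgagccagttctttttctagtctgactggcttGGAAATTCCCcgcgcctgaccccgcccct
Tnfaip3: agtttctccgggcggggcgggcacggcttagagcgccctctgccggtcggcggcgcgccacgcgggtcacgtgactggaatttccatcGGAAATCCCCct
Cxcl1: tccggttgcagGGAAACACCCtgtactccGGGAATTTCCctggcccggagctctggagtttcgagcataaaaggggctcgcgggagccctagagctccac
Cxcl2: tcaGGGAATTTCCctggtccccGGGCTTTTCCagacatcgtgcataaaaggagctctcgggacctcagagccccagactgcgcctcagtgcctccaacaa
Plk2: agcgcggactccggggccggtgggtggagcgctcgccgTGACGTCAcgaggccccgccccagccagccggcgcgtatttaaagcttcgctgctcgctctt

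These stretches lie at chr12:55492648-55492747 on the minus strand (Nfkbia), chr10:19015411-19015510 on the minus strand (Tnfaip3), chr5:90891145-90891244 on the plus strand (Cxcl1), chr5:90903799-90903898 on the plus strand (Cxcl2) and chr13:110394944-110395043 on the plus strand (Plk2). They precede the RefSeq start. GENCODE places the start farther upstream for Tnfaip3, whose stretch lies wholly inside that gene, and for Cxcl1 and Cxcl2, whose stretches reach into it at their 3′ ends. The first base of the match lay 29 bases before the start of Nfkbia and 12 before that of Tnfaip3. Cxcl1 and Cxcl2, neighbours on chromosome 5, each hold 2 matches, beginning 89 and 71 bases before the start in Cxcl1 and 97 and 78 before it in Cxcl2. Among the 34 tested immediate-early genes 27 had a window, and 1 of them, Dusp5, matched the kappaB motif. The cyclic AMP response element was found for 4 of the 27 (Btg2, Dusp1, Errfi1 and Maff), in 10.8% of their 37 windows. The CArG box, bound by serum response factor, was found for 4 (Dusp5, Egr2, Srf and Zfp36), in 18.9% of the windows, against 1.63% of all windows and 1.34% of those of tested genes. The AP-1 motif TGANTCA matched 2 of the 27, Csrnp1 and Zfp36l1, in 5.41% of the windows, against 7.81% of all windows and 5.33% of those of tested genes. In the NF-kB list it matched 6 of the 21 genes with a window (Cxcl10, Ikbke, Lif, Nfkb2, Nfkbie and Tnfaip3), in 25% of the windows. Such shares describe the lists as they were chosen and not the comparison of the groups.

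Among the inhibitors, Tnfaip3 encodes A20, an enzyme that edits ubiquitin chains and dampens NF-kB signaling (chromosome 10, 19000910 to 19015657, GENCODE annotation of mm10). Its expression was 159, 172 and 164 TPM in Pre-enriched libraries and 206, 253 and 238 TPM in FACS-only libraries. The groups did not overlap, and the Pre-enriched values were as low as those of Pre-FACS cells (162, 156 and 159 TPM), while Mock values (201, 180 and 209 TPM) reached into the FACS-only range. The difference was -0.49 on the log2(TPM + 1) scale (SE 0.073, 95% interval -0.64 to -0.33, adjusted p = 0.069), and the adjusted p ranged from 0.00441 to 0.748 over the alternatives. Nfkbia encodes the inhibitor IkB-alpha (chromosome 12, 55489410 to 55492647). Its TPM values were 277, 251 and 298 in Pre-enriched and 336, 367 and 410 in FACS-only libraries. All 3 Pre-enriched values were again lower, by -0.43 on the log2 scale (SE 0.0874, adjusted p = 0.248), and here they lay above the 3 Pre-FACS values of 241, 221 and 249 TPM. Nfkbiz, taken here as an NF-kB target and not as an inhibitor, encodes the nuclear protein IkB-zeta (chromosome 16, 55811375 to 55838899). Its expression was 88.8, 104 and 91.5 TPM against 143, 159 and 148 TPM in FACS-only libraries. The difference of -0.66 (SE 0.122, adjusted p = 0.236) had about the same size for each replicate number, at -0.69, -0.61 and -0.68.

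The chemokines split. Cxcl1 and Cxcl2 encode ligands that attract neutrophils, and both were lower in every Pre-enriched library. Cxcl1 was measured at 332, 328 and 425 TPM in Pre-enriched and 439, 471 and 545 TPM in FACS-only libraries, and on the log2 scale it differed by -0.43 (SE 0.107, adjusted p = 0.437). The highest Pre-enriched value was close to the lowest FACS-only value, so the groups were only just apart. Cxcl2 was low throughout, at 3.7, 3.03 and 3.31 TPM against 6.87, 12.1 and 14.1 TPM. Its log2 difference of -1.42 (SE 0.306, 95% interval -2.06 to -0.77, adjusted p = 0.376) was the lowest of all genes tested, and the FACS-only libraries differed among themselves by more than the Pre-enriched ones. The coding parts of the 2 genes are much alike, and how reads that fit both were counted is not given in the sources used here. Cxcl5, a related chemokine and the most abundant member of the list, showed no such shift, with 490, 503 and 538 TPM against 489, 503 and 531 TPM and a 95% interval of -0.11 to 0.12. Of the cytokines, Tnf had 7.12, 10.6 and 8.99 TPM against 10.3, 14.4 and 15.5 TPM, where the groups overlapped, and Csf2 had 24.7, 18.0 and 20.6 TPM against 32.8, 28.4 and 25.8 TPM, where they did not.

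Of the 27 tested members of the NF-kB list, 20 had lower and 7 had higher expression after pre-enrichment, and 0 passed the test. The median log2 difference was -0.068, compared with -0.012 over all genes tested, where 6611 of 12159 (54.4%) were lower and 5548 (45.6%) higher. At an unadjusted p under 0.05, 7 members were lower and 0 higher (4.53% and 2.22% over all genes), and 7 had all Pre-enriched libraries below all FACS-only libraries against the 7.41% of all genes given above. After median centring only 14 of the 27 were lower, with a median of -0.033, and leaving out single libraries moved the median between -0.12 (without FACS-only replicate 2) and -0.050. The subunits went both ways, with log2 differences of -0.12 for Rela, 0.072 for Relb, 0.044 for Nfkb1 and -0.068 for Nfkb2. The members past the unadjusted threshold were the inhibitors Tnfaip3 and Nfkbia, the nuclear protein gene Nfkbiz, the chemokines Cxcl1 and Cxcl2, and the cytokines Tnf and Csf2. Nfkbie, also in the list, was not among them.

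**Figure D1:**
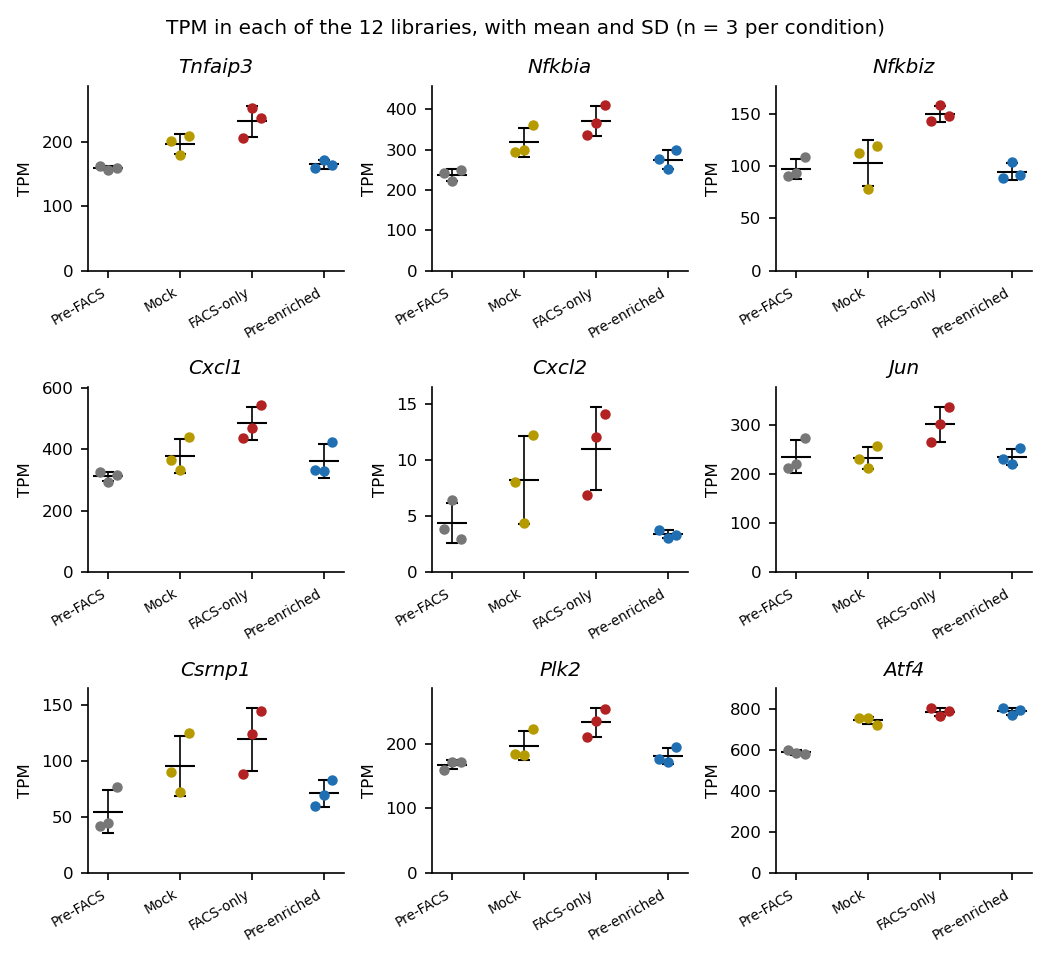
TPM (vertical axes, from 0) of 9 genes in the 12 libraries, by condition; points are libraries and the bars give mean and SD (n = 3). In 8 panels the Pre-enriched mean lies below the FACS-only mean, while Atf4 is at 789 and 786 TPM in these 2 conditions and at 587 TPM in Pre-FACS cells.

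Immediate-early genes were lower in Pre-enriched libraries in 31 of 34 cases, by small amounts, and 0 of the 34 passed the test. Their median log2 difference was -0.17. Jun, a subunit of the transcription factor AP-1 (chromosome 4, 95049034 to 95052222), had the lowest p of the list. It was measured at 231, 221 and 253 TPM in Pre-enriched and 265, 302 and 337 TPM in FACS-only libraries, without overlap. The log2 difference was -0.35 (SE 0.101, adjusted p = 0.498). Csrnp1, a nuclear protein gene (chromosome 9, 119971163 to 119984658), had the lowest difference of the list, -0.73 (SE 0.224, adjusted p = 0.619). Its values of 59.5, 69.8 and 83.3 TPM lay below 88.6, 124 and 145 TPM, though the gap between the nearest libraries was small. Zfp36, whose product promotes decay of inflammatory messenger RNAs, was at 1065, 1130 and 1257 TPM against 1263, 1376 and 1520 TPM, again without overlap. The most abundant member, the AP-1 subunit Junb, was at 2318, 2316 and 2767 TPM against 2231, 2589 and 2923 TPM, and there the groups overlapped.

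The Fos, Egr1 and Nr4a1 genes, often used as readouts of the immediate-early response, had lower values in the Pre-enriched library at each of the 3 replicate numbers, but the groups overlapped. Fos was at 889, 829 and 1046 TPM in Pre-enriched and 931, 988 and 1175 TPM in FACS-only libraries (log2 difference -0.16, 95% interval -0.43 to 0.11). Egr1 was at 1764, 1889 and 2437 TPM against 2032, 2247 and 2668 TPM (-0.19, interval -0.53 to 0.14). Nr4a1, at 228, 250 and 461 TPM against 274, 294 and 523 TPM, varied more within each condition than between them (-0.23, interval -1.01 to 0.55). Much of that spread went with the replicate number, as the library numbered 3 was the highest in both groups. For Junb the difference was -0.062 (interval -0.31 to 0.18), with both signs among the replicate numbers. In all, 9 of the 34 had an unadjusted p under 0.05, all lower, and 7 were below without overlap, against 4.53% and 7.41% of all genes. The median of the list stayed negative under the other scalings, at -0.14 after median centring, where 28 of 34 were lower, and at -0.16 after removal of the length and GC trend. Leaving out 1 of the 12 libraries moved it between -0.27 (without Pre-enriched replicate 3) and -0.10 (without FACS-only replicate 3).

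Set beside the other conditions, the median of the immediate-early genes was 0.31 higher in FACS-only and 0.15 higher in Pre-enriched than in Pre-FACS libraries on the log2 scale. Against Mock the medians were 0.16 for FACS-only and -0.002 for Pre-enriched. For the NF-kB list the medians against Pre-FACS were 0.051 for FACS-only and -0.036 for Pre-enriched. These comparisons share libraries with each other and with the main one and are given as values only. For Tnfaip3 the log2 difference from Pre-FACS was 0.54 in FACS-only (adjusted p = 0.005209) and 0.050 in Pre-enriched libraries (adjusted p = 0.892). Whether these effects differ is what the main comparison tests, and there Tnfaip3 did not pass. Over all genes, 15 (0.123%) were called between FACS-only and Pre-FACS and 6 (0.0493%) between Pre-enriched and Pre-FACS, while 0 (0%) were called for either against Mock.

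**Figure D2:**
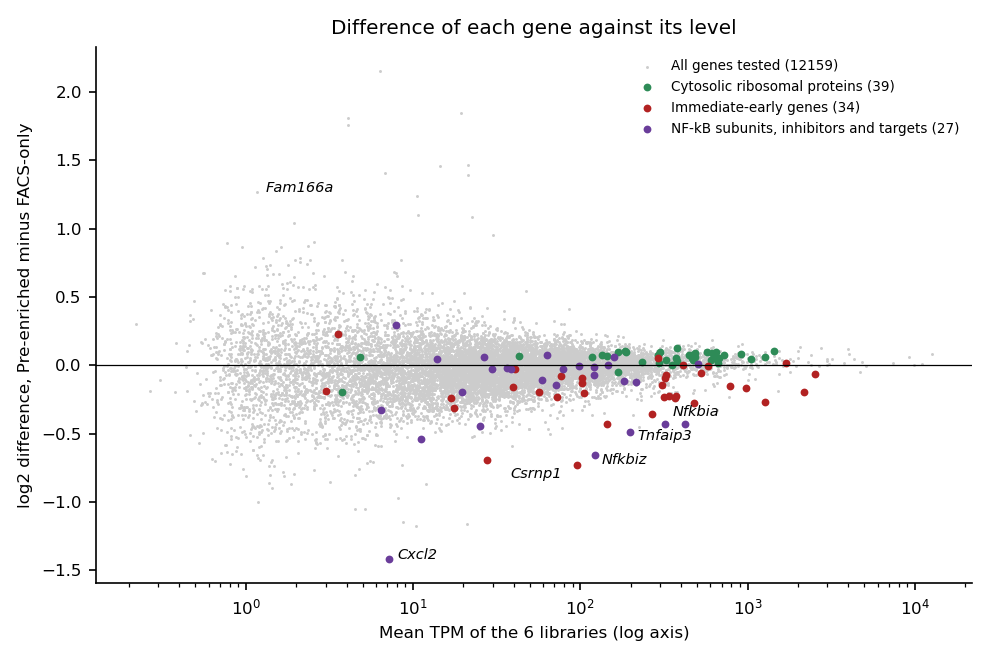
Log2 difference of Pre-enriched from FACS-only libraries (vertical axis) against mean TPM of the 6 libraries (horizontal axis, log scale); each point is 1 of the 12159 genes tested and 3 gene lists are colored. Most immediate-early genes and the labelled NF-kB genes lie below 0, ribosomal protein genes lie just above it, and the scatter of all genes narrows with expression.

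The kinase genes Plk2, Plk3 and Pim1 are described for their low p or their call with the replicate block, and no list of such kinases was tested. Plk2, a polo-like kinase gene induced by stress and growth signals (chromosome 13, 110395046 to 110400844), was at 176, 173 and 196 TPM in Pre-enriched and 211, 237 and 256 TPM in FACS-only libraries (log2 difference -0.36, SE 0.0829, adjusted p = 0.413). Its relative Plk3 was at 45.2, 49.4 and 68.4 TPM against 64.3, 77.1 and 88.9 TPM. Plk2 did not overlap between the groups, whereas Plk3 did, with log2 differences of -0.50, -0.63 and -0.37 at the 3 replicate numbers. Pim1, a kinase gene of early growth control, was at 111, 99.9 and 95.3 TPM against 116, 151 and 128 TPM (-0.36, SE 0.0929, adjusted p = 0.437).

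Circadian clock genes act in a feedback loop in which period, cryptochrome and REV-ERB proteins repress their own activators. Of 18 tested, 13 had lower and 5 had higher expression in Pre-enriched libraries, with a median log2 difference of -0.12 and 0 past the test. Nr1d1, encoding REV-ERB-alpha (chromosome 11, 98767932 to 98775333), was at 31.2, 33.5 and 35.8 TPM against 40.4, 46.5 and 48.3 TPM (-0.42, SE 0.0944, adjusted p = 0.413). Per1 was at 3.85, 4.33 and 3.52 TPM against 5.5, 6.07 and 6.62 TPM, and Per3 at 3.57, 2.86 and 4.34 TPM against 5.98, 6.21 and 4.99 TPM. None of these 3 genes overlapped between the groups, and neither did Arntl, Cry2 and Bhlhe40, the most abundant of the list at 427, 424 and 465 TPM against 475, 523 and 519 TPM. These 6 of 18 stand beside the 7.41% of all genes that were below without overlap. The activators went both ways. Arntl, one of these 6, was lower, while Clock was slightly higher in Pre-enriched libraries, by 0.061 (95% interval -0.16 to 0.28).

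YAP and TEAD factors read mechanical tension, and their targets were lower in 16 of 18 cases with a median of -0.12 and 0 past the test. The 16 of these genes with a known length had long transcripts (median 4824 bases), and over those 16, without Cyr61 and Ctgf, the median was -0.074 after the length and GC trend was removed. Dock5 had the lowest p, at 8.58, 12.0 and 8.98 TPM against 11.5, 15.3 and 13.1 TPM, where the groups overlapped. The best known targets were nearly level, with Cyr61 at 4105, 4234 and 5518 TPM against 4102, 4521 and 5738 TPM and Ctgf at 576, 560 and 571 TPM against 570, 598 and 577 TPM. The genes of actin and of serum response had a median of 0.019, with 9 of 17 higher. Leaving out single libraries moved it between 0.002 (without Pre-enriched replicate 3) and 0.037 (without FACS-only replicate 3). After median centring it was 0.055, with 4 of 17 lower.

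Other genes among the 12 lower ones of lowest p belong to no theme fixed in the lists. Snx18, which sorts membrane cargo, was at 60.3, 56.8 and 55.6 TPM against 76.3, 71.9 and 74.4 TPM. Rassf5, a gene of the Ras association domain family, was at 1.59, 2.23 and 2.14 TPM against 5.13, 4.15 and 3.95 TPM (-0.86, SE 0.171, adjusted p = 0.248). Dicer1, the nuclease that makes microRNAs, was at 11.6, 11.6 and 13.2 TPM against 16.8, 17.8 and 17.2 TPM. In each of these the FACS-only values stood apart from the Pre-enriched values by more than the spread within either group. Slc22a23, a transporter gene, had 36.1, 42.9 and 44.4 TPM against 54.4, 62.3 and 54.3 TPM, and the annexin gene Anxa13 had 23.5, 25.4 and 28.9 TPM against 35.4, 37.3 and 35.0 TPM. For Rassf5 and Slc22a23 the FACS-only values were near those before sorting (log2 differences from Pre-FACS of 0.058 and 0.019).

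On the higher side, Fam166a had the lowest p (chromosome 2, 25218745 to 25222280). It was at 2.18, 1.75 and 2.27 TPM in Pre-enriched libraries and at 0.348, 0.12 and 0.351 TPM in FACS-only libraries. Mock (0.119, 0 and 0.35 TPM) and Pre-FACS libraries (0, 0 and 0.118 TPM) were as low as FACS-only, so that the gene passed the filter of 1 TPM in 3 libraries only through the Pre-enriched group in which it was higher. The log2 difference of 1.27 (SE 0.232, adjusted p = 0.236) rests on low values whose read numbers are unknown. Tmed1, a gene of secretory transport, was at 31.3, 33.1 and 31.2 TPM against 22.4, 26.2 and 22.3 TPM (0.42, SE 0.098, adjusted p = 0.413), and Edil3, which encodes a matrix protein, at 10.2, 9.64 and 12.7 TPM against 5.97, 8.26 and 4.08 TPM. Both had no overlap between the groups, and for both the FACS-only mean differed from that before sorting by -0.29 on the log2 scale. The other higher genes were Dgcr6, Batf3, Serpina1b, 2900060B14Rik, Hspb6, Bnip1, AI987944, Tsta3 and B3galnt1, with log2 differences from 0.21 for Tsta3 to 0.90 for Batf3 and adjusted p between 0.437 and 0.448. Serpina1b belongs to a family of near-identical genes and 2900060B14Rik is annotated as antisense, so reads of these 2 may have come from other genes.

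Differences over 1 on the log2 scale, in either direction, were found for 20 genes, of which 18 are genes of small RNAs, mostly snoRNA and microRNA genes, and the others are Cxcl2 and Fam166a. Of the 18, 12 were higher and 6 lower, and their lowest adjusted p was 0.487. The 77 small RNA genes tested had differences with an SD of 0.764, compared with 0.167 for all other genes, and their 95% interval reached a median of 0.889 to either side against 0.241. Many such genes lie within host genes and are shorter than a sequencing fragment, so a TPM value for them is uncertain.

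In the integrated stress response 0 of the 26 tested genes passed the test between the groups. Atf4, its central transcription factor (chromosome 15, 80255184 to 80257541), was at 802, 771 and 793 TPM in Pre-enriched and 804, 765 and 789 TPM in FACS-only libraries. The log2 difference was 0.005 with a 95% interval of -0.085 to 0.10, and both groups were higher than Pre-FACS by 0.42 (adjusted p = 0.0003957 for Pre-enriched and 0.0004712 for FACS-only). Of the 26 tested genes of this response 19 were higher and 7 lower, with a median of 0.043 that lay between -0.049 (without FACS-only replicate 3) and 0.12 when single libraries were left out. After median centring the median was 0.078, with 5 of 26 lower. The amino acid enzyme gene Phgdh, the most abundant member, was at 1070, 925 and 851 TPM against 903, 951 and 832 TPM. Ppp1r15a, which encodes a regulator of the phosphatase that ends the response, was at 198, 193 and 244 TPM against 219, 256 and 267 TPM (-0.23, adjusted p = 0.743).

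Heat-shock genes had a median of 0.006 (10 of 19 higher). Without overlap 2 were above and 0 below, against 4.91% and 7.41% of all genes. Hsp90ab1 was at 1482, 1494 and 1492 TPM against 1400, 1490 and 1513 TPM. The regulator Hsf1 was at 109, 104 and 106 TPM against 100, 88.2 and 93.9 TPM, without overlap. Hspb6, a small heat-shock protein gene outside this list, was at 110, 98.1 and 98.6 TPM against 87.1, 81.5 and 88.6 TPM (0.25, adjusted p = 0.437), also without overlap. The unfolded protein response had a median of -0.021, and its chaperone Hspa5 (BiP), at 1351, 1411 and 1498 TPM against 1464, 1693 and 1700 TPM, had a difference of -0.19 (adjusted p = 0.673). The medians of the p53 targets (-0.045), growth arrest genes (-0.047), NRF2 and antioxidant genes (-0.026), osmotic response (-0.020), hypoxia targets (-0.006) and iron handling (0.003) were all within 0.05 of 0 with every library in the fit. Without FACS-only replicate 1 the median of the p53 targets was -0.019. Without single libraries the medians reached -0.061 for p53 targets, -0.084 for growth arrest genes (both without FACS-only replicate 3) and -0.041 for antioxidant genes (without FACS-only replicate 1). The median changed sign for the osmotic response (-0.052 to 0.014), hypoxia targets (-0.056 to 0.026), iron handling (-0.014 to 0.005), heat-shock genes (-0.019 to 0.044) and the unfolded protein response (-0.065 to 0.011). After median centring the signs turned for antioxidant genes (0.009), the osmotic response (0.015), hypoxia targets (0.029) and the unfolded protein response (0.015), while p53 targets were at -0.010 and growth arrest genes at -0.012. No member of these lists passed the test. Heme oxygenase Hmox1, which degrades heme, was at 60.8, 63.7 and 58.4 TPM against 71.4, 74.6 and 71.0 TPM without overlap (-0.24, adjusted p = 0.701). Ferritin light chain Ftl1 was level, at 9677, 9908 and 10218 TPM against 10181, 9657 and 9909 TPM.

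**Figure D3:**
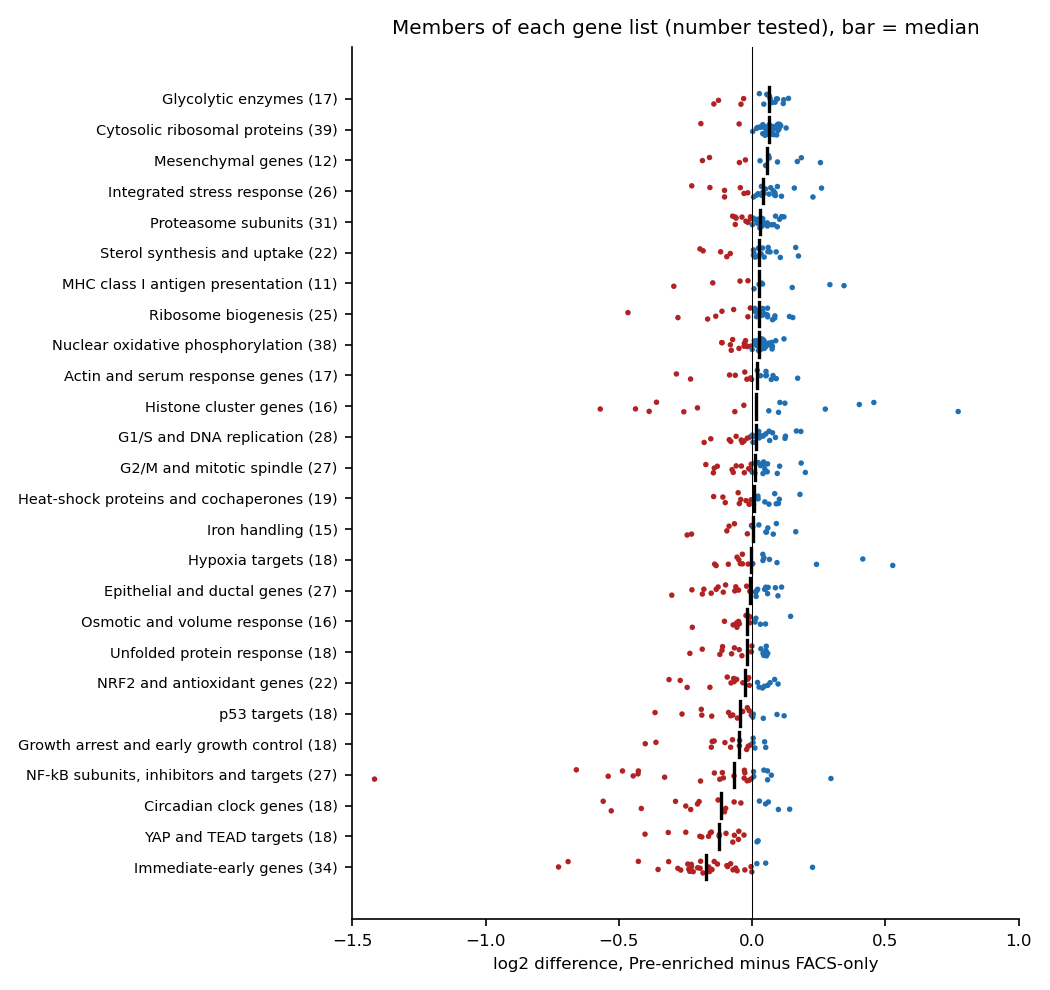
Log2 difference of Pre-enriched from FACS-only libraries (horizontal axis) for the tested members of each gene list with 10 or more members; points are genes, blue when higher and red when lower, and the black bar is the median. The immediate-early list has the lowest median, -0.17, and the glycolytic list the highest, 0.065.

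The medians of the lists of growth and metabolism genes were slightly above 0. Cytosolic ribosomal protein genes were higher in 37 of 39 cases, with a median of 0.064 and 4 without overlap, against 4.91% of all genes above without overlap. Rplp0 was at 1486, 1453 and 1511 TPM in Pre-enriched and 1400, 1386 and 1358 TPM in FACS-only libraries (0.10, SE 0.0464, adjusted p = 0.733). The median moved to 0.16 without FACS-only replicate 1 and to 0.011 without FACS-only replicate 3. Summed over the 39 genes, ribosomal protein expression was 18315, 18004 and 18217 TPM in Pre-enriched and 19543, 16529 and 16251 TPM in FACS-only libraries. FACS-only replicate 1 was thus higher than any Pre-enriched library and the other 2 lower, and the difference of the means, 738 TPM, had an exact two-sided permutation p of 0.4, where 0.1 is the smallest that 3 against 3 libraries allow.

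Glycolytic enzyme genes were higher in 13 of 17 cases, with a median of 0.065. Aldoa, the aldolase of glycolysis, was at 2224, 2099 and 2175 TPM against 1942, 1905 and 2065 TPM (0.14, SE 0.0437, adjusted p = 0.667), and Gapdh at 4083, 4081 and 4210 TPM against 3636, 3730 and 4042 TPM. Neither overlapped. Of the list, 2 genes were above and 2 below without overlap (4.91% and 7.41% over all genes), the latter being Hk2 (log2 difference -0.14) and Pgam1, at 306, 308 and 309 TPM against 324, 323 and 360 TPM. Smaller medians were found for the proteasome (0.029, 22 of 31 higher), sterol synthesis and uptake (0.027, 17 of 22), nuclear oxidative phosphorylation (0.026, 26 of 38), ribosome biogenesis (0.026, 17 of 25) and antigen presentation by MHC class I (0.026, 7 of 11). The nucleolar protein gene Npm1 was at 930, 895 and 917 TPM against 866, 805 and 816 TPM, and Utp20, a long gene of ribosome biogenesis, at 20.5, 22.4 and 18.9 TPM against 25.7, 32.5 and 28.4 TPM. Cell-cycle genes had small medians, 0.016 for replication (18 of 28 higher) and 0.011 for mitosis (15 of 27 higher). Histone cluster genes were higher in 8 and lower in 8 of 16 cases, with a median of 0.016. When single libraries were left out, the medians stayed above 0 for glycolysis (0.025 to 0.091), the proteasome (0.010 to 0.043), sterol synthesis (0.006 to 0.053) and ribosome biogenesis (0.010 to 0.048). They changed sign for oxidative phosphorylation (-0.032 to 0.087), MHC class I (-0.051 to 0.073), replication (-0.040 to 0.049), mitosis (-0.065 to 0.043) and histones (-0.20 to 0.072). Median centring moved the median of all genes from -0.012 to 0.023, and with it those of ribosomal proteins and glycolysis to 0.10, the proteasome to 0.064, sterol synthesis to 0.062, and oxidative phosphorylation, ribosome biogenesis and MHC class I to 0.061. The centred medians were 0.052 for replication (7 of 28 lower), 0.046 for mitosis (8 of 27 lower) and 0.051 for histones (7 of 16 lower).

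The label of an epithelial pancreatic tumor line was checked against its markers. The keratins of ductal cells were among the most abundant genes, with Krt18 at 9099, 9111 and 9896 TPM in Pre-enriched and 8469, 8868 and 9641 TPM in FACS-only libraries. Cdh1, encoding E-cadherin, was at 976, 1024 and 985 TPM against 1006, 1051 and 1057 TPM (log2 difference -0.061, 95% interval -0.15 to 0.031), and Epcam, a surface protein used to find epithelial cells in blood, at 34.8, 33.1 and 35.2 TPM against 33.3, 33.7 and 34.6 TPM (0.021, interval -0.16 to 0.20). Both genes overlapped between the groups. Of 27 tested epithelial and ductal genes 13 were higher and 14 lower, with a median of -0.009. At an unadjusted p under 0.05, 4 were lower and 0 higher, and 3 were below and 1 above without overlap, where over all genes 4.53% and 2.22% passed that p and 7.41% and 4.91% did not overlap. For 21 of the 27 the 95% interval lay within 0.5 in both directions, against 73% of all genes tested. The transcription factor gene Elf3 had the lowest p, at 240, 241 and 249 TPM against 269, 268 and 276 TPM (-0.15, SE 0.0455, adjusted p = 0.575), without overlap and with little spread within either group. The junction gene Ocln, at 19.8, 14.9 and 19.5 TPM against 21.1, 22.4 and 23.5 TPM, had the lowest difference, -0.30. Mesenchymal genes were present too, with Vim at 1012, 1015 and 1059 TPM against 960, 999 and 1020 TPM, and 8 of 12 tested were higher, with a median of 0.056 and 0 past the test. Without Pre-enriched replicate 1 the mesenchymal median was 0.001, and without FACS-only replicates 1 and 3, each left out alone, the epithelial median was -0.067 and 0.025. Median centring turned the epithelial median to 0.027 and moved the mesenchymal one to 0.091.

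**Figure D4:**
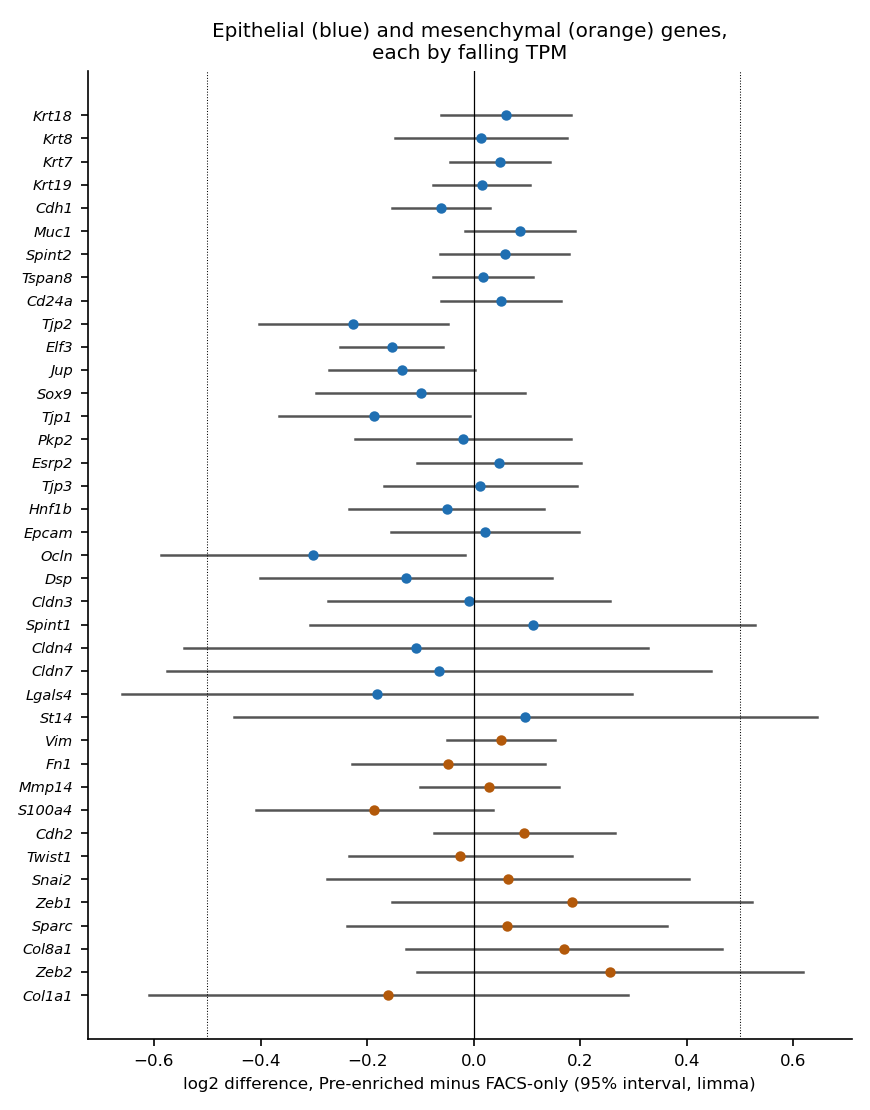
Log2 difference of Pre-enriched from FACS-only libraries with its 95% interval (limma) for 27 epithelial and 12 mesenchymal genes, each group ordered by falling TPM; dotted lines mark 0.5 in either direction. The intervals of the abundant keratins and of Cdh1 stay within 0.25, and those of low genes such as Lgals4 and St14 pass 0.5.

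Markers of blood cells were searched for because the pre-enrichment step is made to remove such cells. Of 27 leukocyte markers 6 were in the table and 4 were tested. Ptprc, which encodes the leukocyte antigen CD45, was at 0.137, 0.417 and 0.249 TPM in Pre-enriched and 0.161, 0.689 and 0 TPM in FACS-only libraries, and Laptm5 reached at most 0.449 TPM. Both were thus under 1 TPM in all 6 libraries. The 4 tested markers were Plac8, Lcp1, Coro1a and Cd74. Lcp1, an actin bundling gene, was at 3.85, 3.78 and 5.11 TPM against 3.73, 6.61 and 5.53 TPM and had the lowest difference, -0.24. Coro1a (2.3, 0.412 and 1.41 TPM against 0.956, 0.986 and 1.59 TPM) and Cd74 (0.0914, 1.39 and 0.634 TPM against 0.184, 1.62 and 1.02 TPM) were low, and all 4 overlapped between the groups. The summed level of the list (1592, 1576 and 1641 TPM against 1668, 1456 and 1372 TPM) was nearly all Plac8, a gene that pancreatic tumor cells also express. Of 18 erythroid markers 8 were in the table and 5 were tested, with a summed level of 532, 547 and 573 TPM against 477, 554 and 544 TPM, mostly Tfrc, a receptor of all dividing cells. Alas2, the heme synthesis enzyme of erythroid cells, was at 3.33, 0.199 and 1.1 TPM against 0.396, 0.68 and 0.466 TPM, so that 1 Pre-enriched library stood above the others. Of 13 platelet markers 4 were in the table and 2 were tested, Itgb3 and Ppbp, with a summed level of the list of 42.0, 50.9 and 45.4 TPM against 45.0, 55.7 and 47.7 TPM. This sum was mostly Itgb3, at 37.5, 46.3 and 42.7 TPM against 42.9, 53 and 44.5 TPM (log2 difference -0.14). Ppbp went the other way, at 3.47, 3.89 and 2.49 TPM against 1.57, 2.24 and 2.56 TPM (0.45, adjusted p = 0.771). Both genes overlapped between the groups. The exact permutation p of the leukocyte, erythroid and platelet sums were 0.4, 0.5 and 0.6.

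The intervals bound how large a difference these libraries leave room for. For 11785 genes (96.9%) the 95% interval lay within 1 on the log2 scale in both directions, for 8870 (73%) within 0.5 and for 3519 (28.9%) within 0.25. Among the 3040 genes of highest expression 98.6% lay within 0.5, compared with 18.8% of the 3040 genes of lowest expression, whose mean was at most 9.14 TPM. The Pearson correlation between a Pre-enriched and a FACS-only library averaged 0.9903 across genes (range 0.9886 to 0.9916, 9 pairs), against 0.9913 within Pre-enriched and 0.9902 within FACS-only libraries. Pairs within a group exceeded pairs between them by 0.000417, with an exact one-sided permutation p of 0.3, where 10 partitions allow no p under 0.1. Genes are not independent replicates in such correlations.

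Transcript length moved with the comparison. In 8 bins of about equal size, the median log2 difference was 0.017 for the shortest transcripts (up to 1486 bases) and -0.10 for the longest (6185 bases and more). The libraries of a group did not share this pattern. In the longest bin the median deviation from the mean of the 12 libraries was -0.065, 0.011 and -0.12 in Pre-enriched and -0.029, 0.12 and 0.038 in FACS-only libraries, and in the shortest bin FACS-only replicate 1 stood apart at 0.11. After removal of a length and GC trend from each library, the bin medians lay between -0.001 and 0.014 and 0 genes passed the test. Among nuclear-retained RNAs, which can show differences in RNA extraction, Malat1 was at 456, 624 and 649 TPM against 1022, 593 and 606 TPM, with FACS-only replicate 1 far above the other 5. Gas5, which is in the list but is not a typical nuclear-retained RNA, was at 47.2, 50.2 and 58.4 TPM against 74.8, 65.6 and 56.3 TPM (-0.33, adjusted p = 0.733). All 3 tested RNAs of this list, Gas5 among them, were lower, with a median of -0.33, so this median does not describe nuclear-retained RNAs alone. That median was -0.083 without FACS-only replicate 1 and -0.25 after removal of the trend. For the long genes Utp20 and Dicer1 the log2 differences of -0.47 and -0.48 became -0.35 each after removal of the trend, and that of Tnfaip3 became -0.40. The lower values of the immediate-early genes were present after the trend was removed, as given above.

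**Figure D5:**
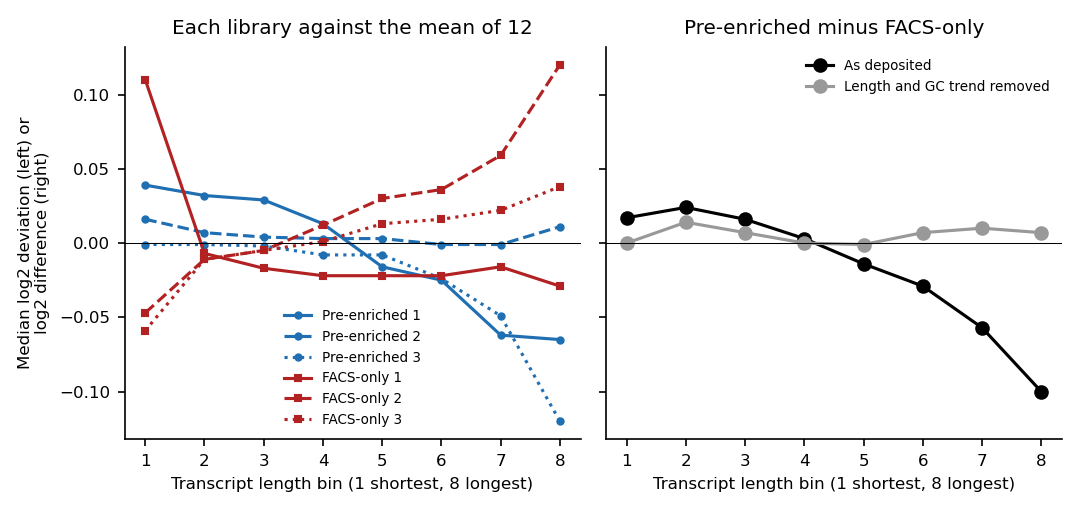
Left, median log2 deviation of each of the 6 libraries from the mean of all 12 libraries (vertical axis) in 8 bins of transcript length (horizontal axis, 1 shortest); right, median log2 difference of Pre-enriched from FACS-only libraries in the same bins, as deposited and after removal of a length and GC trend. As deposited it falls from 0.017 in the shortest bin to -0.10 in the longest, and the curves of single libraries within a group differ.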

How the data were processed

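Bulk RNA of PD798 cells was amplified (SMART-Seq v4) and sequenced. The authors aligned reads to mm10 with spike-in sequences (STAR), counted them per gene (featureCounts), normalized by the upper quartile (EDASeq) and deposited TPM, corrected for effective length and scaled to a fixed total. The annotation used for counting is not given in the sources used here. TPM keeps no depth, so read numbers and counting errors are unknown, and steps of low values did not give the relative depth. Columns of values left unused numbered 0.

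Genes at 1 TPM or more in at least 3 of 12 libraries were kept. A model of log2(TPM + 1) with 4 conditions was fitted to all 12 libraries (limma 3.58.1, R 4.3.3, empirical Bayes with a trend), since groups of 3 give few degrees of freedom. The contrast Pre-enriched minus FACS-only was tested two-sided with Benjamini-Hochberg adjustment over all genes and a threshold of 0.05. On this scale the change of low genes is understated. Lists of genes are described by counts and medians, with no set test. Named genes are those past the threshold in the fit with or without a replicate block, the 12 of lowest p in each direction, the member of lowest p and the most abundant one of each of the 30 lists with tested genes, and Epcam, Cdh1, Ptprc and Atf4. Other genes (such as Fos, Tnf, Per1, Gapdh) were named from the lists after their values were seen. Mitochondrially encoded messenger RNAs were not analysed here. A gene that this rule names, and an allele of the line, are not reported here. The members and lists were chosen with earlier results of these data known. Alternatives were another pseudocount (0.1), other filters, quantile normalization, median centring, no trend, array weights, each gene alone, only the 6 libraries, a threshold of 0.1, a replicate block and each library left out. Removal of a length and GC trend (natural splines) was added after the data had been seen. Coordinates and lengths (96.4% of genes matched) are from GENCODE, promoters from RefSeq. Python 3.11.15, pandas 2.3.3 and scipy 1.17.1 were used.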

Additional observations from a re-analysis of the deposited data

How the results depend on the processing

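The count of genes called, 0, became 7 with the replicate number as a block (Tnfaip3, Nfkbia, Plk2, Jun, Plk3, Cxcl1 and Csrnp1, all lower), 2 without the trend (Rassf5 and Fam166a), and 1 each with no filter on low values (Fam166a), array weights (Tnfaip3), only the 6 libraries (Nfkbiz) and a threshold of 0.1 (Tnfaip3). It was 0 to 2 when single libraries were left out, with Tnfaip3 called without FACS-only replicate 1 and Tnfaip3 and Nfkbiz called without Mock replicate 2. The replicate numbers are not stated to mark a shared culture or day. Deviations of same-numbered libraries correlated at 0.0563, 0.0675 and 0.0718, those of other pairs between -0.0467 and -0.0185, so each library correlated best with its own number, which is a hint from the data. The 270 higher genes at an unadjusted p under 0.05 became 540 after median centring and 196 to 359 without single libraries. The 551 lower genes became 341 after median centring, 357 after removal of the length and GC trend (fewer genes were tested) and 318 to 686 without single libraries, the lowest without FACS-only replicate 2. Genes bounded within 0.5 numbered 7979 to 8914 without single libraries, and the excess of correlation within groups ranged from -0.000115 to 0.00124. The difference of the summed TPM of Pre-enriched from FACS-only libraries then ranged from 143 to 1789 for ribosomal proteins and -60 to 14.3 for histones. It ranged from -271 to -33.7 for the nuclear-retained list (with Gas5). For leukocyte, erythroid and platelet markers it ranged from 41.2 to 189, 1.98 to 40.5 and -5.81 to -0.288. Genes at 1 TPM or more ranged from -43 to -10.5, genes listed at 0 from -14.5 to 43 and the number of genes that hold 0.5 of the total from -29.2 to -9.33. Of the 49 named genes past an unadjusted p of 0.05, 1108 of 1123 values under alternatives kept their direction and side of the adjusted threshold, 15 passed it and 0 changed direction. Of the other 35 named genes, 8 of 803 values moved by more than their spread, and of the 30 list medians 25 of 690 did, several with a change of sign. The causes of these changes were not tested.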

Other observations

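Some genes varied more with the replicate number than with the condition. Nr4a1, an immediate-early nuclear receptor gene, was at 228, 250 and 461 TPM in Pre-enriched, 274, 294 and 523 TPM in FACS-only, 152, 165 and 400 TPM in Pre-FACS and 214, 221 and 478 TPM in Mock libraries, so that the library numbered 3 was the highest in each of the 4 conditions. Hes1, a target of Notch signaling, had 946, 925 and 1299 TPM, 949, 943 and 1243 TPM, 790, 793 and 1200 TPM, and 851, 816 and 1158 TPM in the same order. Psph, an enzyme gene of serine synthesis, went the opposite way, with 185, 159 and 127 TPM in Pre-enriched, 188, 162 and 128 TPM in FACS-only, 186, 151 and 124 TPM in Pre-FACS and 183, 152 and 127 TPM in Mock libraries. The amino acid gene Asns had 742, 632 and 542 TPM in Pre-enriched and 713, 616 and 539 TPM in FACS-only libraries. These genes were picked after their values were seen.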
